A study of Rattus norvegicus with 17 samples.

Results

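The genes described here were nearly silent in the lungs of control rats and present in the lungs of rats given bleomycin. They were chosen on CPM values, the reads of a gene per 1000000 reads counted in its library. A gene was kept when its mean was below 1 CPM in controls and at least 3 CPM with bleomycin, and when at least 3 bleomycin libraries reached 2 CPM. The rule found 48 of the 32753 genes in the table. The levels in control and bleomycin libraries chose these genes, so those levels and the rise between them are given as a description, with no test. The level in lungs given bleomycin and the compound BI1015550 was not used by the rule, and how far each gene fell back there is the main measurement below. That measurement is taken against the bleomycin and control means, which the rule did use.

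Bulk RNA was sequenced from lung parenchyma of Wistar rats of the RjHan:WI strain. Of the 17 libraries, 6 came from controls given NaCl, 5 from rats given bleomycin at 1 mg per kg, and 6 from rats given bleomycin at 1 mg per kg together with BI1015550 at 2.5 mg per kg. The last group is called treated, and every treated lung also received bleomycin. There was no group given the compound without bleomycin. The labels give no sex, age, route, time point or batch, and do not say that each library is a separate animal, so a p-value here reflects how far these libraries scatter, which may be technical in part. Libraries are numbered as in the labels, 1 to 6 in controls, 7, 8, 9, 11 and 12 with bleomycin and 13 to 18 in treated lungs, so that order and group cannot be told apart.

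Bleomycin breaks DNA strands, and in the rodent lung it is used to cause epithelial injury, inflammation and then fibrosis, the deposition of collagen-rich matrix by activated fibroblasts. PDE4B, the enzyme that the series title names as the target of BI1015550, degrades cyclic AMP, a second messenger that dampens inflammatory and fibroblast activation. A gene that is nearly absent from healthy tissue can appear in bulk RNA when resident cells switch it on or when cells that carry it move in. In bulk libraries, more cells of a type and more RNA per cell cannot be told apart.

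The deposited table names genes by Ensembl rat identifiers and pairs them with no symbols, so the role of each gene in these processes is not stated here. The identity of the tissue could not be checked against marker genes for the same reason. The genes are numbered 1 to 48 in order of falling mean with bleomycin and are called members 1 to 48. Identifiers are given for 5 of them. Members 1 and 2 (ENSRNOG00000011824 and ENSRNOG00000006151) had the highest means with bleomycin. Members 6 and 17 (ENSRNOG00000029768 and ENSRNOG00000010507) kept the smallest share of their rise in treated lungs among members with a bleomycin mean of at least 5 CPM. Member 39 (ENSRNOG00000009797) was singled out after its values were seen.

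Library totals ran from 14609389 to 18462105 counts. A level of 3 reads, taken here as the limit of what a library could show, was between 0.163 and 0.205 CPM. Such limits cover counting error only. No pair of libraries within a group was a repeat of one library, since the closest pair differed by 11.6 times the variance that sampling of reads alone gives.

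Near silence covered a range of control levels. The control mean was below 0.2 CPM for 8 members, from 0.2 to below 0.5 CPM for 8 and from 0.5 to below 1 CPM for 32. Member 10 came closest to absence, with 1 read in all 6 control libraries together. Member 4 had 12 reads in the 6 control libraries, and members 2, 17 and 31 had 14 each. At the other end, members 12 and 32 each had 101 control reads. For 29 members at least 1 control library exceeded 1 CPM, and 8 members had a control library without a single read. The members were therefore low in control lungs, with a median of 0.67 CPM, but most were detected there.

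Control libraries 5 and 6 held more of these transcripts than the other controls. Between them they had the highest control value for 29 of the 48 members. The median member lay at 0.818 CPM in library 5 and 0.697 CPM in library 6, and between 0.46 and 0.534 CPM in the other four. The labels name no difference between these rats.

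With bleomycin the members averaged 3.06 to 32.6 CPM, with a median of 4.93 CPM. All bleomycin libraries lay above all control libraries for 43 members, as they did for 8.01% of the 15000 genes tested, a separation that the rule itself favoured and from which nothing is read. The exceptions were members 19, 24, 25, 36 and 37, each with a bleomycin library inside the control range. The level of 2 CPM was reached by every bleomycin library for 25 members, by 4 libraries for 15 and by 3 libraries for 8.

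**Figure D1:**
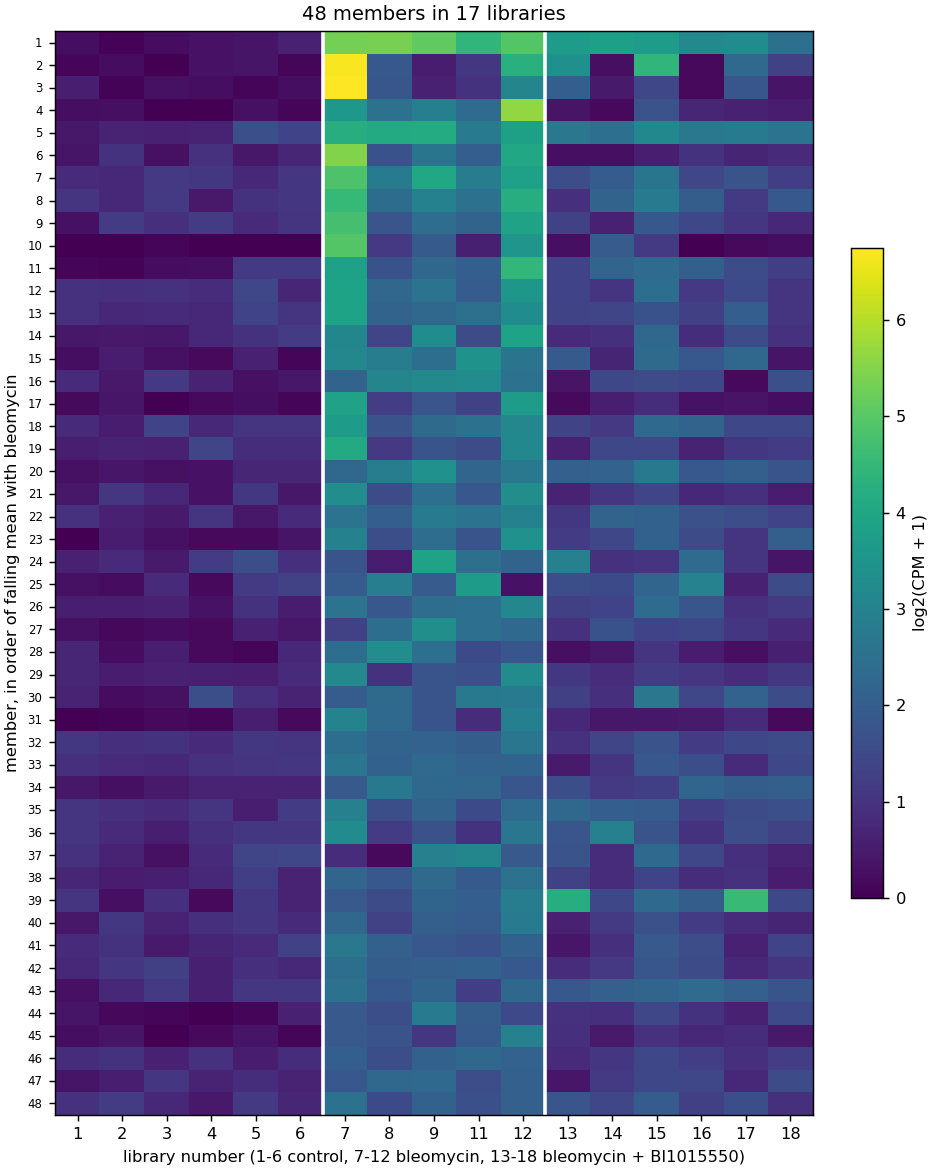
Level of each of the 48 members (rows, in order of falling bleomycin mean) in each of the 17 libraries (columns, by their number in the labels), as log2(CPM + 1) on the colour scale. White lines part the control, bleomycin and treated groups, and bleomycin libraries 7 and 12 and treated library 15 are the brightest columns of their groups.

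The bleomycin lungs differed widely among themselves, as the map of members by library shows. Libraries 7 and 12 together held the highest bleomycin value for 35 members. The median member lay at 6.06 CPM in library 7 and 6.38 CPM in library 12, against 3.95 CPM in library 9, 3.06 CPM in library 11 and 2.59 CPM in library 8. Summed over the 48 members, library 7 held 656 CPM and library 11 held 189 CPM. A single library carried more than 50% of the bleomycin total for 8 members, and 15 members would average under 3 CPM without their highest library.

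Members 2 and 3 were the most uneven. Member 2 measured 102, 2.59, 0.46, 1.12 and 18.5 CPM in bleomycin libraries 7, 8, 9, 11 and 12. Member 3 measured 106, 2.47, 0.526, 0.998 and 7.39 CPM in the same libraries. Both were dominated by library 7, which held 81.8% and 90.3% of their bleomycin totals, and in library 9 both were close to the highest control values of 0.303 and 0.477 CPM.

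Other members were even. Member 1 measured 39.2, 40.2, 33.2, 20.6 and 29.5 CPM in libraries 7, 8, 9, 11 and 12, and its highest library held 24.7% of the total. Member 5 measured 17.6, 16.6, 16.9, 5.8 and 13.1 CPM in the same order. The leading library was not always 7 or 12. Member 28 peaked in library 8 at 8.96 CPM, member 27 in library 9 at 9.01 CPM, and member 15 in library 11 at 9.86 CPM. Member 25 measured 0.253 CPM in library 12, where most members were high. Members 24 and 37 measured 0.432 and 0.124 CPM in library 8, the library with the lowest median.

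In treated lungs most members had a mean between their control and bleomycin means. The treated means ran from 0.359 to 9.71 CPM with a median of 1.68 CPM. The treated mean was below the bleomycin mean for 47 members and above the control mean for 47. Member 39 was the exception in the first count and member 6 in the second. The choice of members for low control and high bleomycin means favours both counts, and neither was taken over all genes tested. Under the quasi-likelihood test of edgeR over 15000 genes, 37 of 48 members (77.1%) fell below their bleomycin level in the treated group, where 15.7% of all genes tested were called lower. No member was called higher than with bleomycin, where 12.1% of all genes were. None reached an unadjusted p under 0.05 in that direction with edgeR, DESeq2 or limma voom. The members were picked for high bleomycin levels, which on its own draws their treated levels below those of bleomycin. In that count the choice of members and the treatment cannot be told apart.

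The share of the rise left was taken as the treated mean minus the control mean, divided by the bleomycin mean minus the control mean, in CPM. Its median over the 48 members was 21.2%, and the middle 50% of members lay between 12.4% and 34.8%. Without treated library 15 the median was 13.6%, and over the 23 members with a bleomycin mean of at least 5 CPM it was 13.8%. On a log2 scale the median share was 44.4%. The bleomycin and control means in the share were also used to choose the members. A bleomycin mean chosen high lowers the share and a control mean chosen low raises it, so the share depends in part on the choice. The treated mean was at least 2-fold above control for 31 members and at least 5-fold above it for 14. It was at most 0.5 of the bleomycin mean for 39 members.

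**Figure D2:**
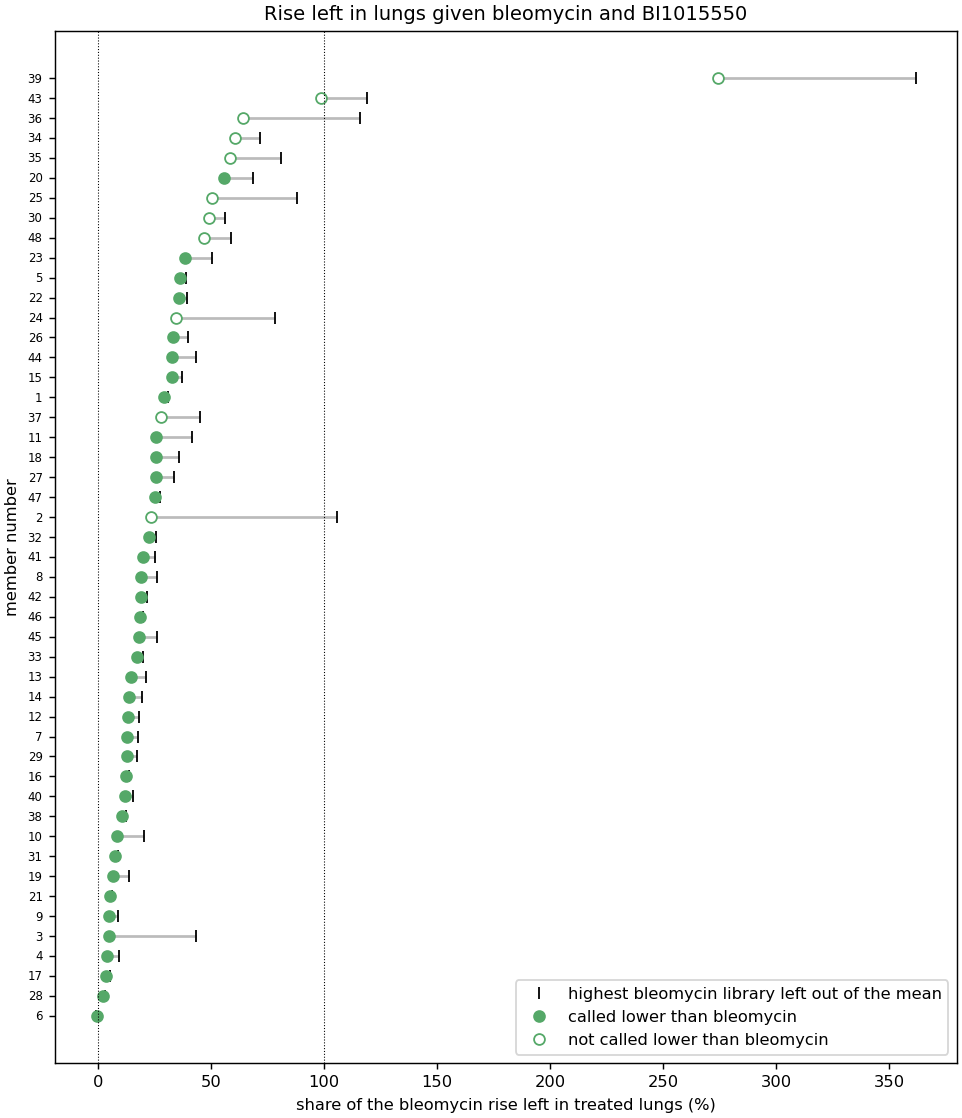
Share of the bleomycin rise left in treated lungs (x axis, percent) for each of the 48 members (y axis, member number), with 0 the control mean and 100 the bleomycin mean. Circles use all libraries and are filled where the member was called lower than with bleomycin, and bars show the share when the highest bleomycin library is left out of the mean, which moves members 2 and 3 from 23.6% to 106% and from 4.92% to 43.4%.

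In a first set of 10 members, under 10% of the rise in CPM was left. These were members 3, 4, 6, 9, 10, 17, 19, 21, 28 and 31, and their treated means had a median of 0.748 CPM against 7.57 CPM with bleomycin. On the log2 scale the share left in this set ran from -2.39% (member 6) to 64.1% (member 10). With edgeR on all libraries, all 10 were called lower than with bleomycin, and none was called higher than in controls. Members 3, 4 and 10 gained a call against control under 1, 3 and 3 of the alternatives run. The set was formed from the same means that the calls compare, so these calls follow in part from how it was formed. Nothing is read from them, and the same holds for the calls within the other sets below.

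Member 6 (ENSRNOG00000029768) had the smallest share left. In controls it ranged from 0.235 to 0.975 CPM with a median of 0.515 CPM. Bleomycin libraries 7, 8, 9, 11 and 12 held 43.6, 2.22, 5.13, 3.06 and 15.4 CPM, and the treated libraries ranged from 0.201 to 0.976 CPM with a median of 0.545 CPM. The treated and control ranges nearly coincided, and every bleomycin library lay above both. The share left was -0.319%. Its log2 fold change against bleomycin was -4.73 (SE 0.722, edgeR adjusted p = 0.000729) and against control -0.10 (SE 0.828, edgeR adjusted p = 0.961).

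Member 17 (ENSRNOG00000010507) was similar at a lower level. Controls ranged from 0 to 0.325 CPM with a median of 0.122 CPM. Bleomycin libraries 7, 8, 9, 11 and 12 held 13.8, 1.36, 2.43, 1.5 and 12.1 CPM, and treated libraries lay between 0.134 and 0.821 CPM with a median of 0.266 CPM. No treated library reached the lowest bleomycin library, while treated and control ranges overlapped. The share left was 3.67%, and the difference from bleomycin was -4.16 on the log2 scale (SE 0.667, edgeR adjusted p = 0.00094).

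Member 4 had a bleomycin mean of 15.2 ± 19.3 CPM (SD, n = 5), and library 12 alone held 49.3 CPM. The other four held 4.12 to 11.2 CPM. The treated libraries ranged from 0.136 to 2.33 CPM with a median of 0.491 CPM, below every bleomycin library. Against bleomycin its log2 fold change was -4.44 (SE 0.708, edgeR adjusted p = 0.00094). With 4.06% of the rise left, this member stayed below 10% when library 12 was left out of the bleomycin mean (9.37%).

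Member 3 did not, with 43.4% left when its highest library, 7, was left out of the bleomycin mean. Members 10 and 19 did not either, with 20.5% and 13.8% left without the same library. The treated libraries of member 3 ranged from 0.13 to 3.02 CPM with a median of 1.06 CPM. Its bleomycin libraries other than 7 spanned 0.526 to 7.39 CPM, so the groups overlapped. With all libraries its log2 fold change against bleomycin was -4.20 (SE 1.09, edgeR adjusted p = 0.00992). Without bleomycin library 7 it was -1.13 (edgeR adjusted p = 0.257), and limma voom with quality weights gave -1.33 (adjusted p = 0.298).

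Member 10, with 1 control read in all, measured 29.7, 1.17, 2.76, 0.499 and 10.4 CPM in bleomycin libraries 7, 8, 9, 11 and 12. In treated lungs it ranged from 0 to 2.86 CPM with a median of 0.195 CPM. Treated library 14 at 2.86 CPM and library 15 at 1.23 CPM lay inside the bleomycin range, and library 16 had no read, which allows a level of up to 0.195 CPM. Relative to bleomycin, the log2 fold change was -3.59 (SE 0.929, edgeR adjusted p = 0.00977), and it was -2.31 without bleomycin library 7 (edgeR adjusted p = 0.0566). Without treated libraries 13 and 17 it was -3.12 (edgeR adjusted p = 0.0611). The treated mean of member 10 was 78.7-fold above control, a fold that rests on the 1 control read. Against control its log2 fold change was 5.45 (SE 1.92, edgeR adjusted p = 0.0877).

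Member 9 fell from 10 ± 10.1 CPM (SD, n = 5) to 1.36 ± 0.761 CPM (SD, n = 6), beside 0.906 ± 0.378 CPM in controls (SD, n = 6). Its bleomycin libraries 7, 8, 9, 11 and 12 held 26.2, 2.41, 4.27, 3.43 and 13.8 CPM. The treated libraries ranged from 0.544 to 2.6 CPM and crossed the lowest bleomycin library and the control range. Its log2 difference from bleomycin was -2.95 (SE 0.564, edgeR adjusted p = 0.00203).

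The remaining members of this set, 19, 21, 28 and 31, had bleomycin means of 4.16 to 5.94 CPM and treated means of 0.436 to 1.17 CPM. Member 19 went from 5.94 to 1.17 CPM, beside 0.822 CPM in controls, and member 21 from 5.38 to 0.895 CPM, beside 0.652 CPM. Member 28 went from 4.44 to 0.455 CPM beside 0.367 CPM in controls, and its 2.16% was the second smallest share of the 48.

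A second set of 16 members kept 10% to 25% of the rise. It held members 2, 7, 8, 12, 13, 14, 16, 29, 32, 33, 38, 40, 41, 42, 45 and 46. Their treated means had a median of 1.38 CPM, against 4.15 CPM with bleomycin. In this set 15 members were called lower than with bleomycin, all but member 2, and 3 were called higher than in controls (members 7, 32 and 45).

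Member 7 was 1 of 3 members, with members 1 and 45, whose groups were fully ordered. Every treated library lay above every control and below every bleomycin library. The same count was not taken over all genes tested, so nothing is read from it. In member 7 controls ranged from 0.704 to 1.17 CPM with a median of 0.933 CPM. Bleomycin libraries 7, 8, 9, 11 and 12 held 28.2, 5.99, 15.1, 6.24 and 13.5 CPM, and treated libraries ranged from 1.38 to 5.13 CPM with a median of 2.19 CPM. The log2 fold change was -2.48 against bleomycin (SE 0.378, edgeR adjusted p = 0.000729) and 1.46 against control (SE 0.413, edgeR adjusted p = 0.0365). The second call was lost under 11 of the alternatives run, with 1.17 and an adjusted p of 0.0976 without treated library 15.

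Member 8 measured 22.1, 4.26, 6.84, 4.8 and 17.5 CPM in bleomycin libraries 7, 8, 9, 11 and 12, and 0.871 to 5.96 CPM in treated libraries with a median of 2.82 CPM. Treated library 15 crossed into the bleomycin range. The share left was 19.2%, and the log2 fold change from the bleomycin group was -2.02 (SE 0.467, edgeR adjusted p = 0.00537). Without bleomycin libraries 7 and 12 it was -0.94 (edgeR adjusted p = 0.125). Against control the same member gave 1.66 (SE 0.51, edgeR adjusted p = 0.0518), which fell below the threshold under 9 alternatives, among them DESeq2 (adjusted p = 0.0077).

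Member 12 measured 14.1, 3.64, 4.93, 2.93 and 10.8 CPM in bleomycin libraries 7, 8, 9, 11 and 12. The treated libraries ranged from 1.01 to 4.45 CPM with a median of 1.36 CPM, with library 15 alone inside the bleomycin range. Its log2 fold change was -2.06 against bleomycin (SE 0.432, edgeR adjusted p = 0.00333), and -1.12 without bleomycin libraries 7 and 12 (edgeR adjusted p = 0.0608).

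Member 2 (ENSRNOG00000006151) was the member of this set that was not called in either comparison. Treated libraries 13 to 18 held 9.45, 0.204, 20.8, 0.13, 3.93 and 1.45 CPM, and 3 of them lay above the median bleomycin library. The share left of 23.6% became 106% without bleomycin library 7. Against bleomycin it gave -2.15 on the log2 scale (SE 1.07, edgeR adjusted p = 0.142). Against control it was 5.34 (SE 1.64, edgeR adjusted p = 0.051), and DESeq2 gave 5.42 (adjusted p = 0.000629).

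Members 13, 14, 16, 29, 32, 33, 38, 40, 41, 42, 45 and 46 had treated means from 0.691 to 1.84 CPM. Member 29 varied least of these in treated lungs, at 1.05 ± 0.196 CPM (SD, n = 6), above every control but crossing bleomycin library 8 at 0.988 CPM.

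The next 15 members kept 25% to 50%. It held members 1, 5, 11, 15, 18, 22, 23, 24, 26, 27, 30, 37, 44, 47 and 48. Their treated means had a median of 2.27 CPM against 4.97 CPM with bleomycin, with 11 called lower than bleomycin and 10 called higher than control.

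Member 1 (ENSRNOG00000011824) was the most abundant member in bleomycin and in treated lungs. Controls ranged from 0.0542 to 0.545 CPM with a median of 0.215 CPM, and treated libraries from 4.59 to 13 CPM with a median of 10.2 CPM. Every treated library lay above every control and below every bleomycin library. It kept 29.3% of its rise, with log2 fold changes of -1.80 against bleomycin (SE 0.251, edgeR adjusted p = 0.000447) and 5.25 against control (SE 0.361, edgeR adjusted p = 4.03e-07). On the log2 scale 75.1% of the rise was left.

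Member 5 was the most uniform of the abundant members in treated lungs, at 5.68 ± 1.19 CPM (SD, n = 6) and a range of 4.56 to 7.94 CPM. Controls ranged from 0.358 to 2.12 CPM with a median of 0.581 CPM. Treated libraries were all above the controls and crossed only the lowest bleomycin library, number 11 at 5.8 CPM. The share left was 36.2%, and the log2 fold changes were -1.36 against bleomycin (SE 0.325, edgeR adjusted p = 0.00642) and 2.57 against control (SE 0.365, edgeR adjusted p = 0.000712).

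Member 11 measured 13.4, 2.22, 3.81, 3.06 and 21.2 CPM in bleomycin libraries 7, 8, 9, 11 and 12, and 1.38 to 4.11 CPM in treated lungs with a median of 2.54 CPM. The treated range covered the 3 lower bleomycin libraries. Its log2 fold change against bleomycin was -1.80 (SE 0.607, edgeR adjusted p = 0.0355), and that call was lost under 10 alternatives, with -1.17 and an adjusted p of 0.159 without bleomycin library 12. Against control it was 2.43 (SE 0.711, edgeR adjusted p = 0.0417), lost under 9 alternatives, with an adjusted p of 0.0874 without control library 2.

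In this set members 15, 22, 23, 26, 27 and 44 were called both lower than bleomycin and higher than control, as were members 1, 5 and 11. Member 23 averaged 0.203 CPM in controls, 5.05 CPM after bleomycin and 2.06 CPM when treated. Member 15 went from 0.263 to 6.63 and 2.34 CPM, and member 22 from 0.677 to 5.14 and 2.27 CPM. Member 18, called only lower than bleomycin, went from 0.924 to 6.16 and 2.27 CPM. Members 24, 30 and 37 were called in neither comparison, and member 24 had its highest treated library, 13 at 6.7 CPM, above 4 of the 5 bleomycin libraries.

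Members 20, 25, 34, 35, 36 and 43 kept 50% to 100% of the rise, and member 39 exceeded it. Of these 7 members, 1 was called lower than with bleomycin (member 20) and 5 were called higher than in controls (members 20, 34, 35, 39 and 43). The 6 below 100% had a median of 3.65 CPM after bleomycin, and of 2.73 CPM when treated.

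Member 20 measured 3.83, 6.11, 9.73, 3.56 and 5.5 CPM in bleomycin libraries 7, 8, 9, 11 and 12, and 2.39 to 5.68 CPM in treated libraries with a median of 3.17 CPM. Controls reached at most 0.667 CPM, below every treated library. With 56% of the rise left, its log2 fold change was -0.82 against bleomycin (SE 0.287, edgeR adjusted p = 0.0421), a call lost under 11 alternatives, with -0.55 and an adjusted p of 0.154 without bleomycin library 9. Against control it was 3.07 (SE 0.341, edgeR adjusted p = 8.83e-05).

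Member 43 stood at the same level in both injured groups. Bleomycin libraries 7, 8, 9, 11 and 12 held 4.83, 2.59, 3.48, 1.37 and 3.79 CPM, and the treated libraries ranged from 2.39 to 4.1 CPM with a median of 3.19 CPM, inside the bleomycin range. Controls reached at most 1.23 CPM. The share left was 98.8%, with log2 fold changes of -0.07 against bleomycin (SE 0.31, edgeR adjusted p = 0.883) and 1.95 against control (SE 0.327, edgeR adjusted p = 0.00193). A difference too small for the test is not thereby shown to be absent.

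Member 34 measured 2.7, 5.62, 3.75, 3.68 and 2.53 CPM in bleomycin libraries 7, 8, 9, 11 and 12, and 1.22 to 3.58 CPM in treated lungs with a median of 2.53 CPM. All treated libraries exceeded the control maximum of 0.606 CPM. The log2 fold change was -0.66 against bleomycin (SE 0.29, edgeR adjusted p = 0.0965) and 2.37 against control (SE 0.33, edgeR adjusted p = 0.000575).

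Member 39 (ENSRNOG00000009797) was the only member with a higher mean in treated than in bleomycin lungs. Controls ranged from 0.126 to 1.15 CPM with a median of 0.743 CPM, and bleomycin libraries 7, 8, 9, 11 and 12 held 2.7, 1.98, 3.55, 3.06 and 6.25 CPM. Treated libraries 13 to 18 held 17.4, 1.77, 3.97, 2.99, 22.9 and 1.76 CPM. In this gene libraries 13 and 17 stood above every other library of the series, and the other four treated libraries lay within or just below the bleomycin range. The share left of 274% reflects those 2 libraries. Against bleomycin the log2 difference was 1.22 (SE 0.631, edgeR adjusted p = 0.156), and -0.48 without treated libraries 13 and 17 (edgeR adjusted p = 0.469). Against control it was 3.66 (SE 0.697, edgeR adjusted p = 0.00405).

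**Figure D3:**
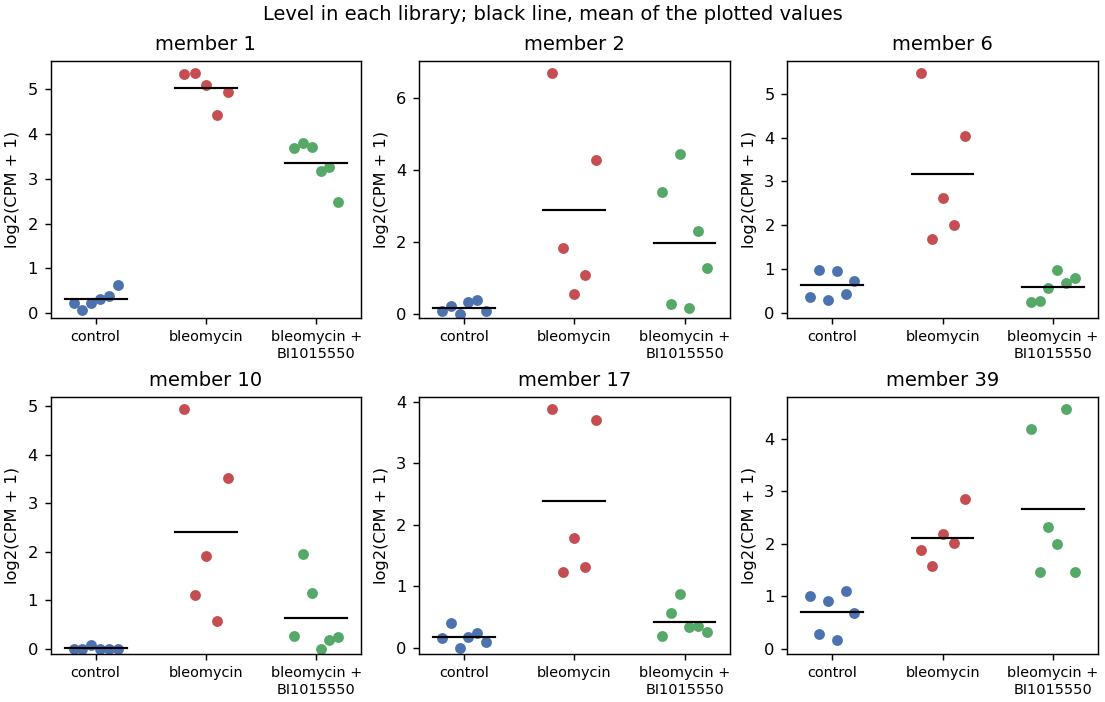
Level of members 1, 2, 6, 10, 17 and 39 in each library (points, log2(CPM + 1), y axes differ) of the control, bleomycin and treated groups, with black lines at the mean of the plotted values. The treated points of member 1 lie between the other groups, those of members 6 and 17 lie near the controls, and member 39 has 2 treated libraries, at 17.4 and 22.9 CPM, above all others.

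Compared with controls, 18 of the 48 members were called higher in treated lungs (37.5%), where 3.92% of the 15000 genes tested were called higher. None was called lower, where 4.47% of all genes were, and none reached an unadjusted p under 0.05 in that direction with edgeR, DESeq2 or limma voom. The members were picked for low control levels, which draws the treated levels above them. Every treated library exceeded every control library for 14 members (29.2%), against 2.23% of all genes tested. Every treated library lay below every bleomycin library for 19 members (39.6%), against 5.59%. The median log2 fold change was -1.62 against bleomycin and 1.46 against control, where the medians over all genes tested were -0.0032 and 0.0041. High bleomycin levels were also used to pick the members. These contrasts with all genes therefore follow in part from the choice, and nothing is read from them.

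The calls sorted the members into 4 kinds. There were 13 that were both lower than bleomycin and higher than control, and 24 that were lower than bleomycin only. Another 5 were higher than control only (members 34, 35, 39, 43 and 48), and 6 were called in neither comparison (members 2, 24, 25, 30, 36 and 37). These 4 kinds were not counted over all genes tested. Both comparisons use levels by which the members were chosen, so nothing is read from the sizes of the kinds. A missing call does not place a member at the level of the other group. Leaving out bleomycin libraries 7 and 12 together gave 26 members called lower instead of 37, and 28 called higher than control instead of 18. Those libraries enter the second comparison through the spread and scaling shared by the 3 groups. The members were still those chosen with all libraries, and the share of all genes called was not taken in that fit. A change in the members and a general change in calls therefore cannot be told apart.

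The treated lungs were not alike. Library 15 held the highest treated value for 29 of the 48 members. Its median member stood at 2.5 CPM, against 1.08 to 1.69 CPM in the other five treated libraries. Measured library by library against the bleomycin mean, the median share of the rise left was 47.9% in library 15, 22.3% in library 16, 14.8% in library 14, 12.9% in library 13, 11.8% in library 17 and 11.1% in library 18. Library 15 exceeded the highest control for 45 members, while the other treated libraries did so for 28 to 33. It lay below the lowest bleomycin library for 20 members, against 35 to 38 in the others. Counts by library, here and for the control and bleomycin lungs above, were not taken over all genes tested. Whether library 15 differed in the members or across genes in general was not tested.

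The high treated values of library 15 were not a general feature of all members. Member 39 was highest in library 17, member 1 in library 14 at 13 CPM, member 3 in library 13 at 3.02 CPM, and member 25 in library 16 at 6.9 CPM. Across the 6 treated libraries, the log2(CPM + 1) values of 2 members had a median Pearson correlation of 0.348 over the 1128 pairs, and 73.8% of pairs were above 0. These pairs share libraries and depth, and the values are a description.

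Because the bleomycin levels had chosen the members, each bleomycin library was also measured on genes chosen without it, again as a description. Genes chosen without library 7 had a median of 4.9 CPM in library 7, and those chosen without library 12 had 5.4 CPM in library 12. The corresponding values were 3.81 CPM for library 9, 2.93 CPM for library 11 and 2.47 CPM for library 8. On the same genes the median in treated libraries ran from 1.02 to 2.6 CPM, and the highest control library had at most 0.909 CPM. By these medians libraries 7, 9, 11 and 12 lay above all treated libraries on genes they had not chosen. Library 8, at 2.47 CPM, lay just inside the treated range of 1.08 to 2.5 CPM.

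Gene by gene the separation was less complete. The left-out library exceeded every treated library for 29 of 37 genes in library 7, 24 of 48 in library 8, 31 of 41 in library 9, 30 of 51 in library 11 and 33 of 38 in library 12. It exceeded the treated mean for 35, 37, 36, 41 and 37 of those genes in the same order. The median fold of the left-out library over the treated mean was 3.27, 1.79, 2.3, 1.95 and 3.02 in that order. In the full set the median fold of bleomycin over treated was 2.94. In libraries 8 and 11, 28 of the genes chosen without them lay under 3 CPM.

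**Figure D4:**
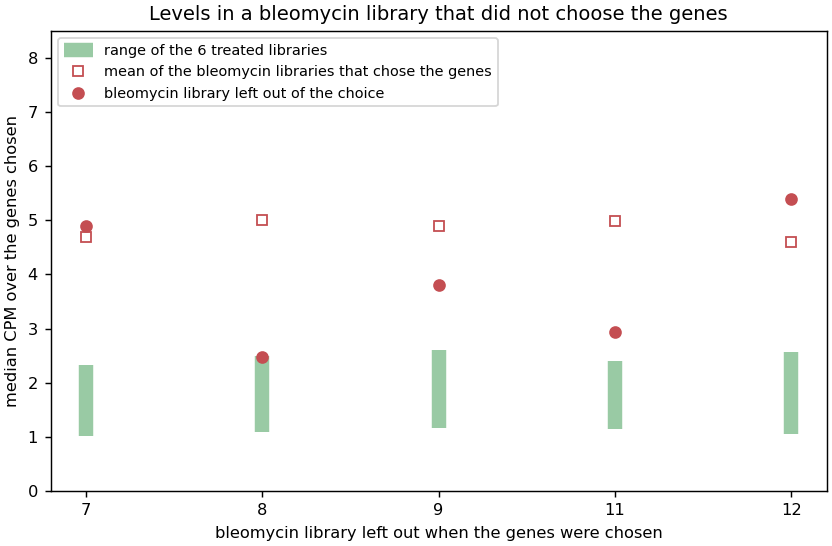
Median CPM (y axis) over the genes chosen when 1 bleomycin library (x axis, its number) was left out of the choice. Filled circles show the left-out library, open squares the mean of the bleomycin libraries that chose the genes, and green bars the range of the 6 treated libraries; only library 8, at 2.47 CPM, falls inside the bar.

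A comparison set held the 123 genes that rose at least as many fold as the member with the smallest fold rise (3.53-fold) from a control mean of 1 CPM or more. Their median share left was 23.4% (middle 50% from 13.5% to 36.2%), beside 21.2% for the 48 members (12.4% to 34.8%). The share left was under 10% for 17.1% of the comparison genes and 20.8% of the members, and over 50% for 9.76% and 14.6%. The 2 sets were close on this measure, and no test of their difference was run. Of the 123 comparison genes, also chosen for their rise, 98 were called lower than bleomycin in treated lungs and 57 higher than control. The counts for the 48 members were 37 and 18, so such calls were not particular to the members. The rises of the 2 sets were not of equal size, with a median fold of 8.1 for the members and 4.72 for the comparison genes. Treated libraries varied more around the mean for the members, with a median coefficient of variation of 52.9% against 38.6%. The members' treated level was lower, 1.68 CPM against 7.84 CPM. Fewer reads give a larger counting error, but how much of the larger variation comes from this was not tested.

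**Figure D5:**
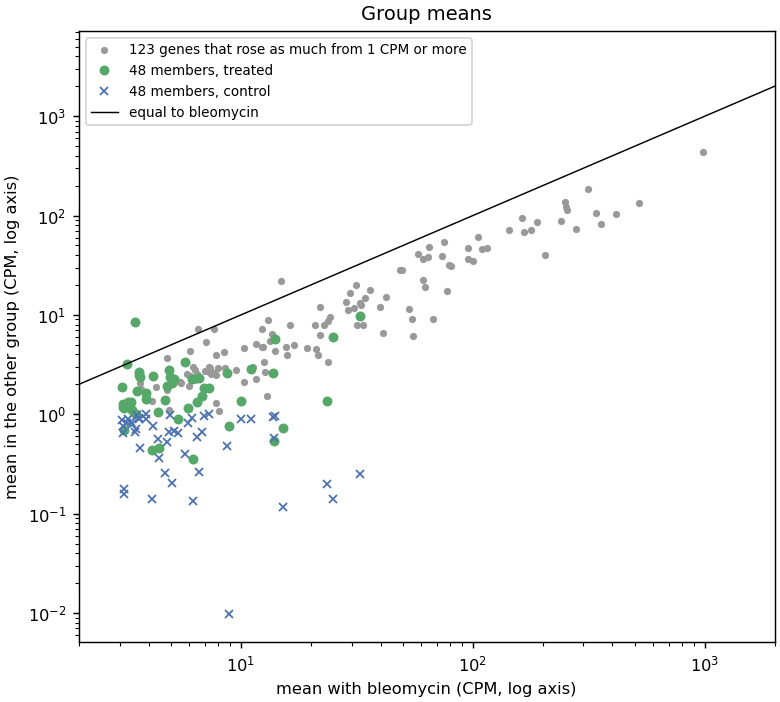
Mean with bleomycin (x axis, CPM, log axis) against the mean in another group (y axis, CPM, log axis) for the 48 members in treated (green) and control (blue) lungs and for the 123 comparison genes in treated lungs (grey). Nearly all green points lie between the controls and the line of equality, and member 39 lies above the line, at 8.46 CPM against 3.51 CPM.

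The members were also described by their control level. The 16 with a control mean under 0.5 CPM rose by a median of 25-fold, and 9 of them were called higher than control in treated lungs. Of these 16, 6 had under 10% of the rise left and 2 over 50%. The 32 with a control mean from 0.5 to 1 CPM rose by a median of 6.07-fold, with 9 called higher than control, 4 under 10% and 5 over 50%. The medians of the share left were 24.6% and 19.5%, and no test of the difference was run. Over all genes tested, 3.92% were called higher than control in treated lungs. The control mean that split the members also enters the fold, the calls and the share. Differences between the 2 parts therefore follow in part from the split, and nothing is read from them.

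The limits of the rule cut through a continuous range. The 12 members with a control mean of 0.9 to 1 CPM had medians of 5.56 CPM after bleomycin and 2.06 CPM when treated, and the 11 genes just outside, from 1 to 1.1 CPM, had 3.71 and 2.08 CPM. The 7 members with a bleomycin mean of 3 to 3.3 CPM had 0.759 CPM in controls and 1.27 CPM in treated lungs, and the 7 genes from 2.7 to 3 CPM had 0.742 and 1.21 CPM. A further 7 genes met both means but had fewer than 3 bleomycin libraries at 2 CPM.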

How the data were processed

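RNA of rat lung parenchyma was measured in 17 libraries as read counts per gene. The authors deposited 1 table of whole-number counts, and each column matched 1 sample by its label. STAR, featureCounts 1.5.1, RSEM 1.3.0 and the build Rnor_6.0 are named, without roles, per the submitters' processing notes. Which tool made the counts, with which annotation, strand setting or filter, is not given in the sources used here, so reads of overlapping or near-identical genes may have been shared or dropped. The reference table used here lists no Ensembl identifiers, so gene names, the gene lists by role and cell type, and sequences were not used.

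CPM values were computed from column sums. Counts were tested in R 4.3.3 with edgeR 4.0.16: genes passing filterByExpr, which all 48 members passed, TMM scaling, 1 quasi-likelihood model of 3 groups on all libraries, and Benjamini-Hochberg adjustment over 15000 genes, with calls at an adjusted p below 0.05. The SE is the log2 fold change divided by the square root of F. Alternatives were DESeq2 1.42.0, limma 3.58.1 (voom with quality weights), other scalings, no filter, 2-group fits, other limits of the rule and each library left out. The rule for values took the 12 members with the highest bleomycin mean, the extremes of the share left and each limit of the rule. Other single members, such as 24, 25, 27, 28, 29, 34, 37, 39 and 43, were given after their values were seen. Members and lists were chosen with earlier results of these data known.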

Additional observations from a re-analysis of the deposited data

Results flagged for a closer look

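By Dixon's test, 10 of 61 sets of library values had an extreme library, 9 of them sets of 1 gene in 1 group, where chance gives about 1 in 20 for normally distributed values. The values of members are not independent, and many are low counts. The members examined were taken for a high bleomycin mean, for an extreme share left or after their values were seen. A single extreme library can itself raise a mean, so the count is not comparable with the chance rate and nothing is read from it. Bleomycin library 7 stood out for member 2 (102 CPM, next highest 18.5 CPM) and member 3 (106 CPM, next 7.39 CPM), and bleomycin library 12 for member 4 (49.3 CPM, next 11.2 CPM).

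Treated library 15 stood out for member 4 (2.33 CPM, next 0.651 CPM), member 5 (7.94 CPM, next 5.69 CPM), member 12 (4.45 CPM, next 1.83 CPM) and member 20 (5.68 CPM, next 3.33 CPM). It also stood out in the median share of the rise left, at 47.9% against 22.3% in the next library. In controls, library 5 stood out for member 12 (1.7 CPM, next 0.955 CPM), and library 3 for member 10 (0.0587 CPM), where the value is a single read and the other controls had none.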

How the results depend on the processing

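The count of 37 members lower in treated than in bleomycin lungs was 36 or 37 under the other tools, scalings and filters, and 32 to 37 with each library left out. It was 26 without bleomycin libraries 7 and 12 and 29 without treated libraries 13 and 17, alternatives added after the data were seen. The count of 18 members higher than control was 16 to 25 under those settings and 13 to 24 with each library left out, and it was 28 without bleomycin libraries 7 and 12. The shares of all genes called were not taken under these alternatives. The rule found 16 members with a control limit of 0.5 CPM, 23 with a bleomycin limit of 5 CPM, 25 when all 5 bleomycin libraries had to reach 2 CPM, and 27 without bleomycin libraries 7 and 12. The median share left ran from 13.6% to 25% with each library left out and was 13.8% with a bleomycin limit of 5 CPM. The lowest of the former was without treated library 15, and both low values lie more than 1.5 times below 21.2%. Of 844 values of 34 single differences under alternatives, 759 kept their sign and side of the threshold, 49 lost a call, 25 gained one and 11 changed sign, none of the last called.

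Changes of sign against bleomycin were as follows: member 2 at 0.0047 without bleomycin library 7 (with each library left out it ran from -3.09 to 0.0047) and 2.01 without libraries 7 and 12, member 39 at -0.484 without treated libraries 13 and 17, and member 43 at 0.0287 with limma voom and 0.307 without bleomycin libraries 7 and 12 (with each library left out from -0.265 to 0.129). Against control, member 6 was 0.0621 without treated libraries 13 and 17, and -0.342 to 0.112 with each library left out. The cause was not tested for these. No paired analysis was possible because no replicate number occurs in more than 1 group. Depth limits levels below about 0.2 CPM.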
